A study of Mus musculus with 36 samples.

Results

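The 10 genes described here are Pde7a, Rgs1, Crybg3, Tmeff2, Tmem273, Dok7, Tmem252, Chchd10, Tst and Sesn2. In eWAT, the white fat pad attached to the epididymis, their RNA stood away from the low-fat level in mice that had gone back to a low-fat diet after high-fat feeding. They were chosen from the differences of both high-fat-exposed groups from the low-fat group in eWAT, so those differences are given below as a description, without a test. They are 10 of the 16690 genes of the eWAT table. The liver table, with 14052 genes, holds 9 of them and not Dok7.

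RNA was sequenced from eWAT (epididymal white adipose tissue) and liver of male C57BL/6 mice, wild type and of the F0 generation. They were 24 weeks old and had eaten chow up to 6 weeks of age. HFLF mice then had 9 weeks of high-fat feeding followed by 9 weeks of low-fat feeding, HF mice had 18 weeks of high-fat feeding, and LF mice had 18 weeks of low-fat feeding. Each diet had 6 libraries per tissue, 36 in all. The labels do not say that each library came from a mouse of its own, so p-values measure the spread between libraries, which may be technical in part.

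These genes act at several points of cell signalling and mitochondrial chemistry. Adipocytes release fatty acids when hormones raise cyclic AMP, and phosphodiesterases such as Pde7a break cyclic AMP down. Rgs1 speeds the shut-off of heterotrimeric G proteins and is best known from leukocytes, where it damps chemokine receptor signals. Crybg3 carries beta-gamma crystallin domains, and the human protein has been described as an anchor for protein kinase A. Tmeff2 is a transmembrane protein with EGF-like and follistatin-like domains. Dok7 is the adaptor that activates the kinase MuSK at the neuromuscular junction. Chchd10 is a protein of the mitochondrial intermembrane space. Tst is the mitochondrial sulfurtransferase rhodanese, which takes part in sulfide breakdown and has been linked in mice to resistance to diet-induced obesity. Sesn2 is a stress-induced leucine sensor that restrains the growth kinase complex mTORC1. Tmem273 and Tmem252 are membrane proteins with little known function.

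In 3 of the 10 genes, Chchd10, Sesn2 and Tmem252, the HFLF mean lay further from the LF mean than the HF mean did. HFLF and HF libraries overlapped in each of the 3, so this order of the means is a description only. It served to pick the promoters shown. The bases just before their RefSeq transcription starts are given 5′ to 3′ on the gene's own strand (RefSeq, GRCm38.p6). For Sesn2 these are the 205 bases of the 250-base window that lie before the GENCODE gene. Capitals mark matches to TGATGNAA, the C/EBP-ATF composite motif, searched on both strands. Of the 10 genes, 7 had an entry in the promoter table, and Pde7a, Rgs1 and Tst are named only.
Chchd10, chr10:75932880-75933129, plus strand: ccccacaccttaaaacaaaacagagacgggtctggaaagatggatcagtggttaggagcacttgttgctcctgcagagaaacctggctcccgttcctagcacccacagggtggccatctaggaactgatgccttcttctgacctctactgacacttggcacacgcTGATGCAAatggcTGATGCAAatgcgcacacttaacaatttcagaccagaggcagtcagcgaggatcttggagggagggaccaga
Sesn2, chr4:132510502-132510706, minus strand: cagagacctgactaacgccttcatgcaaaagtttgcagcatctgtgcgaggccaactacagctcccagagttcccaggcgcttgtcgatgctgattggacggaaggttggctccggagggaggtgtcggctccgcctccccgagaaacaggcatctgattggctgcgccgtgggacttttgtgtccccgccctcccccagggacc
Tmem252, chr19:24673758-24674007, plus strand: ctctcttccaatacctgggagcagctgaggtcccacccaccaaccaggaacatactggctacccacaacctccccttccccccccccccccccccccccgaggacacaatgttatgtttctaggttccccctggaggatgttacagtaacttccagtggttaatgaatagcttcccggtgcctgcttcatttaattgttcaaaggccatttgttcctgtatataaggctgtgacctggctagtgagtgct
The Chchd10 stretch held 2 matches, both TGATGCAA on the gene's strand, at bases 85 to 78 and 72 to 65 before the start. Among 32851 mouse promoter windows of 250 bases, 3.45% held at least 1 match and 0.0396% held 2 or more. The Sesn2 stretch held 2 CCAAT boxes on the other strand, a motif found in 33.8% of windows, and 1 GC box (GGGCGG, in 32.7% of windows). The Tmem252 stretch held 1 CCAAT box. The Chchd10 stretch was 1 of 7 windows searched on both strands for 8 motifs. The other 5 were the E-box (CACGTG, in 6.02% of windows), the ERR element (TNAAGGTCA, 1.14%), the cAMP response element (TGACGTCA, 1.55%), the PPAR element (0.0335%) and an NF-kB motif (0.14%). Of the windows not shown, Tmeff2 held 1 E-box, 1 CCAAT box and 2 GC boxes, Crybg3 4 GC boxes, Dok7 1 GC box and Tmem273 none of the 8. A match is a string of letters and was not tested for binding.

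Library totals were 8941798 to 31186477 counts in eWAT and 11662551 to 23295485 counts in liver. Levels are CPM, counts scaled to library size with TMM factors, and a log2 fold change is given with its standard error from edgeR's quasi-likelihood model over all 18 libraries of a tissue. The tissue labels matched their markers: Alb, the main hepatocyte product, averaged 61982 CPM in liver and at most 207 CPM in any eWAT group, and the adipocyte list led by Fabp4 summed to at least 18148 CPM in eWAT and at most 525.7 CPM in liver. At an adjusted p of 0.05, edgeR called 94 eWAT genes in HFLF against LF, 0.563% of those tested, and 40.8% in HF against LF. All 10 genes were among both, but they were chosen from these differences. Their presence was fixed in advance and is not a result about them. Of the 94 genes, 85 were called in both comparisons, each with the same sign in both, but the LF libraries are shared. Tst lay just inside the HFLF threshold with Sephs2 (edgeR adjusted p = 0.0481) and Pde7b (0.0486). Cdca7l (0.0508), Trem2 (0.0515) and Kirrel (0.0526) lay just outside. The count of 94 depended on single libraries and was 0 to 341 when each HFLF or LF library was left out in turn, with 0 to 10 of the 10 genes among those called.

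In eWAT, 5 of the 10 genes were higher in both HFLF and HF than in LF: Pde7a, Rgs1, Crybg3, Tmeff2 and Tmem273. The other 5, Dok7, Tmem252, Chchd10, Tst and Sesn2, were lower in both. Log2 fold changes in HFLF against LF ran from 0.36 ± 0.06 for Crybg3 to 3.81 ± 0.82 for Rgs1 among the higher genes and from -1.82 ± 0.37 for Tmem252 to -1.23 ± 0.20 for Sesn2 among the lower ones. The HFLF and LF libraries overlapped for 2 of the 10 genes, Tmem252 and Tst. Over all eWAT genes, 2.56% had no overlap between HFLF and LF and 15.8% had none between HF and LF, where Tmem252 was the 1 gene of the 10 that overlapped. The 10 genes were chosen from these differences, so little overlap with LF was favoured in advance and is not a result about them.

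Pde7a (chr3:19223108-19311322, minus strand, GRCm38) had 64.7, 54.03, 74.1, 46.8, 67.5 and 60.4 CPM in the 6 HFLF libraries. HF libraries held 57.1 to 92.3 CPM with a median of 77.8, and LF libraries 22.5 to 39.1 CPM with a median of 30.4. Every HFLF and every HF library lay above every LF library, and HFLF and HF overlapped. The log2 fold change was 0.99 ± 0.16 in HFLF against LF, 1.29 ± 0.16 in HF against LF and -0.30 ± 0.16 in HFLF against HF.

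Crybg3 (chr16:59490775-59600979, minus strand) had the tightest libraries of the 10. It averaged 34.0 ± 2.04 CPM in HFLF, 35.1 ± 1.91 CPM in HF and 26.4 ± 2.22 CPM in LF eWAT (SD, n = 6 each). HFLF libraries ran from 30.6 to 36.1 CPM, and the highest LF library had 28.9 CPM. The log2 fold change was 0.36 ± 0.06 in HFLF against LF and 0.41 ± 0.06 in HF against LF. Its exons share 1185 bases, 9.32% of its exon length, with Riox2 on the other strand, and the sources used here do not give the strand setting of the counting. Riox2 averaged 16.1 ± 2.76 CPM in HFLF, 19.5 ± 1.04 CPM in HF and 15.6 ± 2.09 CPM in LF.

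Tmeff2 (chr1:50900647-51187270, plus strand) had 21.5, 26.9, 25.2, 15.5, 16.4 and 18.8 CPM in HFLF. HF libraries held 26.6 to 39.3 CPM (median 30.7) and LF libraries 7.12 to 13.2 CPM (median 11.7). HFLF lay between the other diets, with no overlap with LF and a small one with HF. The log2 fold change was 0.90 ± 0.16 in HFLF against LF, 1.53 ± 0.16 in HF against LF and -0.63 ± 0.16 in HFLF against HF.

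Tmem273 (chr14:32785963-32817984, plus strand) held 9.995 to 12.5 CPM in HFLF (median 11.2), 9.88 to 14.7 CPM in HF (median 12.6) and 6.36 to 8.21 CPM in LF (median 7.51). HFLF and HF libraries were interleaved, all of them above the LF libraries. The log2 fold change was 0.60 ± 0.11 in HFLF against LF and 0.75 ± 0.11 in HF against LF.

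Rgs1 (chr1:144242296-144249242, minus strand) varied most between libraries of 1 diet. HFLF libraries had 6.49, 25.4, 3.68, 4.61, 7.0 and 3.05 CPM. HF libraries had 51.3, 28.1, 122, 69.6, 5.74 and 15.6 CPM, and LF libraries had 0.646, 1.76, 0.381, 0.557, 0.132 and 0.304 CPM. LF values rest on 3 to 23 counts per library. HFLF library 2 stood above its group, where the other 5 libraries reached at most 7.0 CPM, HFLF and HF overlapped, and both lay above LF. edgeR's log2 fold change was 3.81 ± 0.82 in HFLF against LF, 6.37 ± 0.86 in HF against LF and -2.56 ± 0.68 in HFLF against HF. Without HFLF library 2 it was 3.06 in HFLF against LF and -3.30 in HFLF against HF, and without LF library 2 it was 6.98 in HF against LF.

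Dok7 (chr5:35056766-35087839, plus strand) had 4.33, 3.70, 1.94, 8.44, 4.08 and 6.47 CPM in HFLF. HF libraries had 1.36, 1.96, 1.26, 0.607, 0.964 and 0.610 CPM, and LF libraries had 12.8, 17.3, 19.6, 11.6, 12.5 and 11.02 CPM. HF stood lowest, HFLF between and LF highest, and HFLF overlapped HF through the HFLF library at 1.94 CPM. Its log2 fold change was -1.55 ± 0.33 in HFLF against LF, -3.65 ± 0.36 in HF against LF and 2.10 ± 0.34 in HFLF against HF.

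Tst (chr15:78399556-78405907, minus strand) had 21.5, 18.7, 15.98, 42.1, 29.7 and 19.1 CPM in HFLF, against 45.4, 99.03, 102, 77.3, 36.6 and 30.2 CPM in LF. HF libraries held 7.28 to 12.5 CPM with a median of 8.87. Tst was the 1 gene of the 10 whose HFLF and HF libraries did not overlap, against 9.44% of all eWAT genes. In log2 terms the difference was -1.40 ± 0.31 in HFLF against LF, -2.83 ± 0.32 in HF against LF and 1.43 ± 0.31 in HFLF against HF. Tst lies head to head with Mpst, the gene of a related sulfurtransferase, 508 bases away on the other strand. Mpst averaged 47.3 ± 3.72 CPM in HFLF, 40.2 ± 6.93 CPM in HF and 60.6 ± 11.1 CPM in LF. Mpst fell in HF against LF (log2 fold change -0.59 ± 0.12, edgeR adjusted p = 0.00133) and missed the threshold in HFLF against LF (-0.36 ± 0.12, 0.155).

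Chchd10 (chr10:75933130-75937747, plus strand) had 33.04, 20.98, 32.9, 54.5, 28.2 and 27.5 CPM in HFLF. HF libraries held 20.2 to 62.8 CPM (median 38.7) and LF libraries 67.5 to 141 CPM (median 73.2). HFLF libraries lay inside the HF range, and both diets lay below every LF library. On the log2 scale the difference was -1.42 ± 0.28 in HFLF against LF, -1.20 ± 0.27 in HF against LF and -0.22 ± 0.27 in HFLF against HF. Chchd10 exons share 155 bases, 9.84% of their length, with Mmp11 on the other strand, a gene that went the other way, with 26.7 ± 8.24 CPM in HFLF, 31.5 ± 10.4 CPM in HF and 16.3 ± 3.64 CPM in LF. Mmp11 rose in HF against LF (0.95 ± 0.22, edgeR adjusted p = 0.00261) and missed the threshold in HFLF against LF (0.70 ± 0.22, 0.125).

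Sesn2 (chr4:132492032-132510501, minus strand) had 37.8, 42.05, 43.7, 38.8, 47.6 and 29.9 CPM in HFLF. HF libraries held 30.9 to 61.4 CPM (median 51.1) and LF libraries 67.3 to 154 CPM (median 82.5). HFLF and HF overlapped, and both lay below LF. The fitted log2 difference was -1.23 ± 0.20 in HFLF against LF, -0.92 ± 0.20 in HF against LF and -0.31 ± 0.20 in HFLF against HF.

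Tmem252 (chr19:24674008-24682233, plus strand) had 10.03, 8.84, 14.8, 14.2, 11.7 and 12.3 CPM in HFLF and 16.9, 16.4, 12.4, 12.7, 13.7 and 15.2 CPM in HF. LF libraries had 33.7, 52.1, 109, 29.6, 18.4 and 14.03 CPM. The LF group spread widely, with library 3 far above the rest and library 6 inside the HFLF and HF ranges. Its fitted log2 fold change was -1.82 ± 0.37 in HFLF against LF and -1.55 ± 0.37 in HF against LF. With LF library 3, HF library 1 and HFLF library 4 left out, it was -1.35 in HFLF against LF and -1.07 in HF against LF.

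**Figure D1:**
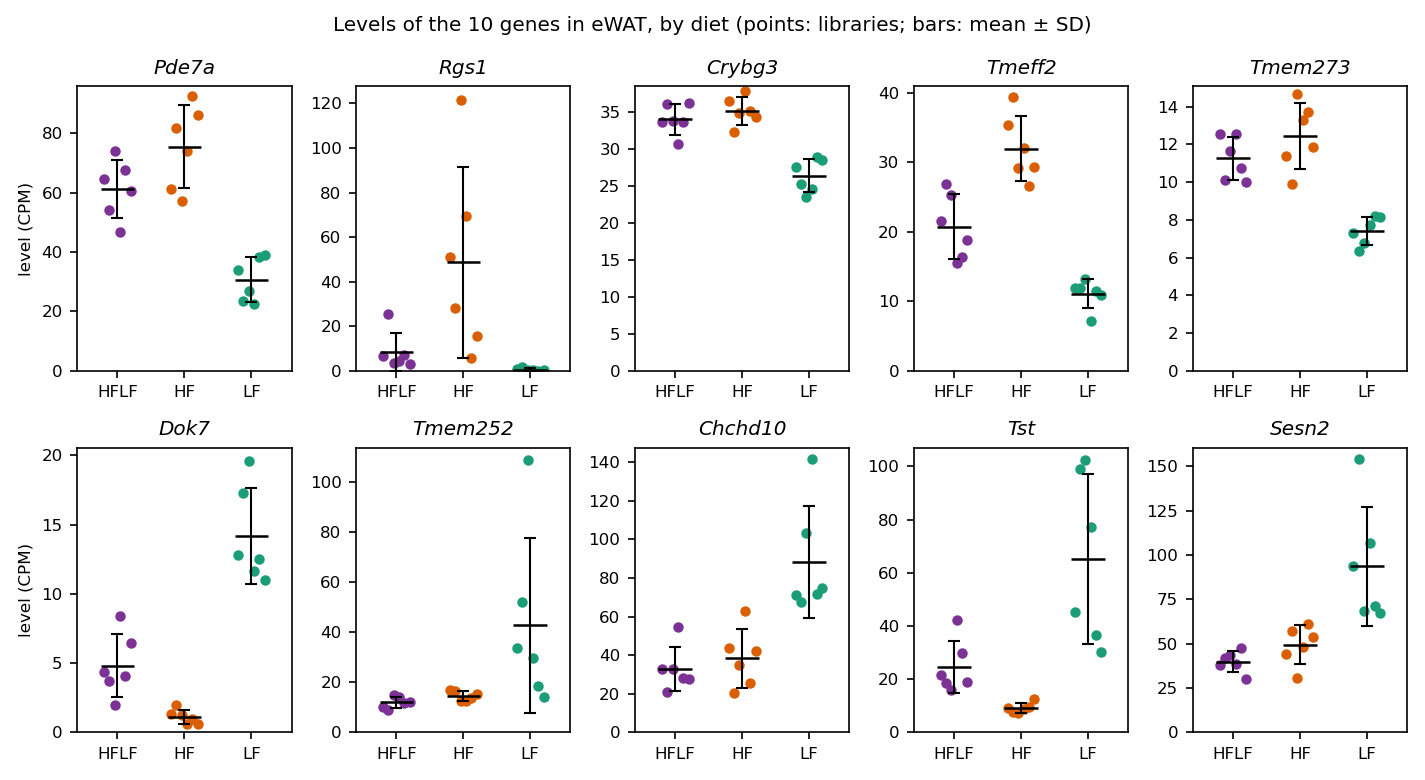
Level in eWAT (CPM, linear axis starting at 0) of each of the 10 genes, with 1 point per library in HFLF, HF and LF and the mean ± SD in black (n = 6 each). The upper row holds the genes that were higher than in LF and the lower row those that were lower, and HFLF points sit near the HF points for Pde7a, Crybg3, Tmem273, Tmem252, Chchd10 and Sesn2.

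Compared with HF, 4 of the 10 genes in HFLF stood by at least 0.63 on the log2 scale on the LF side: Tmeff2, Rgs1, Dok7 and Tst. The other 6 differed from HF by at most 0.31 in either direction. For 3 of them, Chchd10, Sesn2 and Tmem252, the HFLF mean was the more distant from LF. The choice of the genes used the differences of both HFLF and HF from LF in these same libraries. It could thus favour HFLF levels near HF, and the split of 4 and 6 genes is a description only. HFLF and HF libraries overlapped in 9 of the 10 genes. Over all eWAT genes, 9.44% had no overlap between HFLF and HF, so this count is near the background and is not a result about the genes. Per kilobase of exon, eWAT means were highest for Chchd10, with 20.9 CPM per kilobase in HFLF, 24.3 in HF and 56.1 in LF. Sesn2 followed in LF with 11.5 in HFLF, 14.2 in HF and 27.0 in LF. Rgs1 was lowest in LF, with 1.21 in HFLF, 7.01 in HF and 0.0907 in LF. Exon length here is the union over all annotated transcripts of a gene. For Rgs1 that union covers the whole gene, 6947 bases, so its values per kilobase may be too low beside those of the other genes.

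Relatives of the 10 genes were read from lists of the same families and pathways, which leave out the 10 themselves. Over all genes, 0.342% were called higher and 0.222% lower in HFLF against LF, and 20.6% and 20.2% in HF against LF. A list count near these shares is not a result about the list. Among 15 cyclic AMP phosphodiesterases, 1 rose in HFLF against LF, and that was Pde7b, the paralog of Pde7a. Pde7b averaged 10.1 ± 2.05 CPM in HFLF, 11.1 ± 2.69 CPM in HF and 5.86 ± 0.94 CPM in LF. Its log2 fold change was 0.79 ± 0.17 in HFLF against LF (edgeR adjusted p = 0.0486) and 0.93 ± 0.17 in HF against LF (0.000551). In HF against LF, 5 phosphodiesterases rose and 3 fell. Pde3b, the insulin-activated phosphodiesterase of adipocytes, fell in HF against LF (-1.07 ± 0.23, adjusted p = 0.00171) and had a log2 fold change of -0.07 ± 0.23 in HFLF against LF (0.892). The list's median log2 fold change was 0.09 in HFLF against LF, against -0.02 over all genes, and 0.32 in HF against LF, against -0.02.

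Of 3 measured crystallin-domain genes other than Crybg3, Crybg1 rose in both comparisons. Its log2 fold change was 0.59 ± 0.12 in HFLF against LF (edgeR adjusted p = 0.044) and 0.92 ± 0.13 in HF against LF (6.67e-05). The list's median was 0.48 in HFLF against LF and -0.42 in HF against LF. Both the Pde7b and the Crybg1 calls in HFLF against LF were lost without LF library 1, 2 or 4, where edgeR called 0 genes in all, with 2876, 2594 and 2623 genes at an unadjusted p under 0.05. Without HFLF library 1, 2, 3, 5 or 6 edgeR called 1 gene in all, so the calls cannot both hold there. Without LF library 3 it called 4 genes in all. DESeq2 over all libraries called 704 genes.

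Sesn2 moved apart from its own family in eWAT. Sesn1, a p53-regulated sestrin, rose in HF against LF (0.72 ± 0.17, edgeR adjusted p = 0.00277) and averaged 57.4 ± 5.4 CPM in HFLF, 73.1 ± 22.8 CPM in HF and 44.4 ± 5.9 CPM in LF. Sesn3, a sestrin known as a FoxO target, rose in HF against LF (0.59 ± 0.20, 0.0251), and its log2 fold change was 0.80 ± 0.20 in HFLF against LF (0.0691). Among 27 sestrins and ATF4- or p53-driven stress genes, 12 rose and 2 fell in HF against LF, and 1 rose in HFLF against LF. The 1 gene was Gadd45a, a growth-arrest gene, at 1.01 ± 0.21 (0.0414), and its call too was lost without LF library 1, 2 or 4. Without HFLF library 1, 2, 3, 5 or 6 only 1 gene of the whole table was called. Atf3, a stress-induced transcription factor, rose most in HF against LF (3.84 ± 0.64, 0.000242), and the 2 that fell were Asns, asparagine synthetase (-1.01 ± 0.17, 0.000284), and Chac1, which breaks down glutathione (-0.78 ± 0.20, 0.00613). The list's median was -0.04 in HFLF against LF and 0.28 in HF against LF. Of 26 genes of mTORC1 nutrient sensing, 6 rose and 2 fell in HF against LF, led by Seh1l, a subunit of GATOR2 (-0.23 ± 0.05, 0.00159), and Rptor, the mTORC1 scaffold (0.35 ± 0.08, 0.0027), and the median was 0.01 in HFLF against LF and 0.04 in HF against LF.

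Around Tst, 8 of 17 genes of sulfide oxidation and sulfur amino acid breakdown fell and 1 rose in HF against LF. Sqor, the mitochondrial sulfide-quinone oxidoreductase, fell by 1.31 ± 0.17 on the log2 scale (edgeR adjusted p = 5.2e-05), and Suox, sulfite oxidase, by 1.24 ± 0.21 (0.00025). The median of the list was -0.26 in HFLF against LF and -0.48 in HF against LF. In HFLF against LF edgeR and DESeq2 both called 0 of the 17, and at an unadjusted p under 0.05 in edgeR 5 were lower and 1 higher. Around Chchd10, 3 of 22 CHCHD and MICOS genes rose and 5 fell in HF against LF, beside 20.6% and 20.2% of all genes. Those that fell included Samm50 of the outer-membrane sorting machinery (-0.39 ± 0.07, 0.000253) and Chchd6, a MICOS subunit (-0.67 ± 0.14, 0.00132). Chchd2, the paralog of Chchd10, had log2 fold changes of -0.18 ± 0.14 in HFLF against LF (0.521) and -0.34 ± 0.14 in HF against LF (0.0638). The list's median was -0.02 in HFLF against LF, the same as over all genes, and -0.17 in HF against LF. Of 16 regulators of mitochondrial stress and biogenesis, 8 fell in HF against LF, led by the matrix protease subunit Clpp (-0.90 ± 0.13, 8.76e-05), and the median was -0.08 in HFLF against LF and -0.23 in HF against LF.

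The DOK and RGS lists stand beside the same 20.6% higher and 20.2% lower of all genes in HF against LF. In HF against LF, Dok1, Dok2 and Dok3, adaptors best known from blood cells, rose (Dok1 1.43 ± 0.22, edgeR adjusted p = 0.00013; Dok2 1.62 ± 0.25, 0.00015; Dok3 1.11 ± 0.29, 0.0063), and Dok6 fell (-0.82 ± 0.25, 0.0135), out of 10 genes of the list. The list's median was 0.10 in HFLF against LF and -0.31 in HF against LF. Among 14 RGS genes other than Rgs1, 4 rose and 3 fell in HF against LF. Rgs18 (2.82 ± 0.50, 0.000383) and Rgs10 (1.99 ± 0.33, 0.000253), both known from blood cells, rose in HF, and in HFLF against LF they stood at 0.96 ± 0.48 (0.294) and 0.63 ± 0.33 (0.31). The list's median was -0.06 in HFLF against LF and -0.21 in HF against LF. Of 9 genes with follistatin domains, Fstl1 (1.33 ± 0.20, 0.000118) and Sparc (0.93 ± 0.20, 0.00131), both secreted matrix-associated proteins, rose in HF against LF and Tmeff1, the paralog of Tmeff2, fell (-0.82 ± 0.21, 0.0049). Tmeff1 stood at -0.02 ± 0.20 in HFLF against LF (0.974), and the list's median was 0.01 in HFLF against LF and -0.30 in HF against LF.

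**Figure D2:**
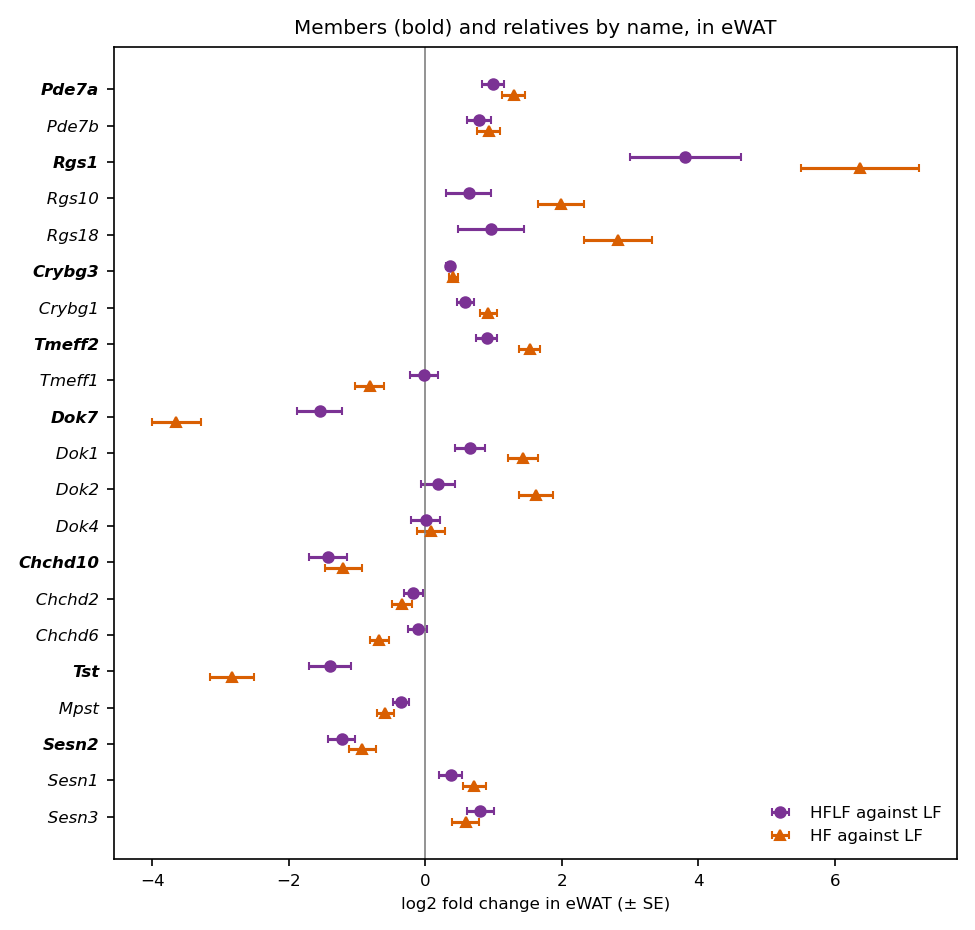
Log2 fold change in eWAT (± SE) of members (bold) and of relatives by name, with circles for HFLF against LF and triangles for HF against LF. Pde7a with Pde7b and Crybg3 with Crybg1 lie on the same side of 0, while Sesn1 and Sesn3 lie opposite Sesn2.

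Markers of other cell types moved with some of these genes. In bulk tissue, fewer cells of a type and less RNA per cell cannot be told apart. All 12 macrophage markers were in the eWAT table, and their summed level ran from 1094 to 3451 CPM in HFLF, 1534 to 11973 CPM in HF and 689 to 1087 CPM in LF. In HFLF against LF, 2 of the 12 rose, Gpnmb (3.60 ± 0.73, edgeR adjusted p = 0.0385) and Itgax (3.11 ± 0.65, 0.0414). Both calls were lost without LF library 1, 2 or 4, where edgeR called 0 genes in all. DESeq2 called 5 of the 12 higher, and at an unadjusted p under 0.05 in edgeR 7 were higher and 0 lower. The list's median log2 fold change was 0.91, against -0.02 over all genes. With diet means removed, Rgs1 followed the macrophage sum over the 18 eWAT libraries (r = 0.81, a description over libraries that differ in depth), and also the summed fibroblast markers (r = 0.70). Rgs1 ran against the summed endothelial markers (r = -0.62) and the summed adipocyte markers (r = -0.56). The 11 B and plasma cell markers, all in the table, summed to 37.9 to 198 CPM in HFLF, 28.5 to 274 CPM in HF and 20.2 to 59.7 CPM in LF (r = 0.58 with Rgs1). The 14 T and NK cell markers, also all in the table, summed to 17.2 to 49.4 CPM in HFLF, 19.3 to 55.5 CPM in HF and 11.5 to 23.4 CPM in LF (r = 0.19). In HFLF against LF edgeR called 0 of the 11 B and plasma cell markers and 0 of these 14. At an unadjusted p under 0.05, 5 and 8 of them were higher and 0 lower. HFLF library 2, the highest of HFLF for Rgs1, also had the highest macrophage sum of HFLF. The part of these cells in the Rgs1 difference was not tested. The summed adipocyte markers (12 of 12 in the table) ran from 36512 to 49258 CPM in HFLF, 18148 to 45501 CPM in HF and 29623 to 53505 CPM in LF, and followed Pde7a within diets (r = 0.62).

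Tmem252 was highest in LF library 3, which also had the highest levels of skeletal muscle and epididymal markers. The 7 skeletal muscle markers in the table, of 10, summed to 107 to 140 CPM in HFLF, 68.4 to 122 CPM in HF and 136 to 746 CPM in LF, with the highest sum in LF library 3. Des had the highest mean level of the list, followed by Acta1 and Myl1, and Ckm, Myh2 and Myh4 were not in the table. Crisp1, the 1 of 14 epididymal markers in the table, ran from 0 to 7.05 CPM in HFLF, 0 to 5.16 CPM in HF and 0 to 218 CPM in LF. With diet means removed, Tmem252 followed the muscle sum (r = 0.76) and Crisp1 (r = 0.72). The part of these tissues in the Tmem252 difference was not tested. All 8 hepatocyte markers were in the eWAT table and summed to 896 to 3297 CPM in HFLF, 32.1 to 1325 CPM in HF and 3005 to 7768 CPM in LF. Cyp2e1, a cytochrome P450 that fat also expresses, led the list with 2210 ± 865 CPM in HFLF, 520 ± 541 CPM in HF and 4258 ± 1968 CPM in LF (SD, n = 6 each). Alb, the serum albumin gene, averaged 49.6 CPM in HFLF, 33.5 CPM in HF and 207 CPM in LF. In HF against LF, 4 of the 8 fell, and in HFLF against LF edgeR and DESeq2 called 0, with 2 lower at an unadjusted p under 0.05 in edgeR. With diet means removed, the hepatocyte sum had r = 0.37 with Tst, 0.31 with Tmem252 and 0.30 with Dok7. It had r = -0.57 with Rgs1, -0.57 with Crybg3 and -0.36 with Chchd10. Its part in the differences of these genes was not tested. With the muscle sum and Crisp1, Tst had r = 0.50 and 0.54, Dok7 0.22 and 0.44, and Crybg3 -0.54 and -0.50. LF library 3 also held the highest eWAT level of Tst (102 CPM) and of Dok7 (19.6 CPM). The part of muscle and epididymis in the differences of these genes was not tested either.

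**Figure D3:**
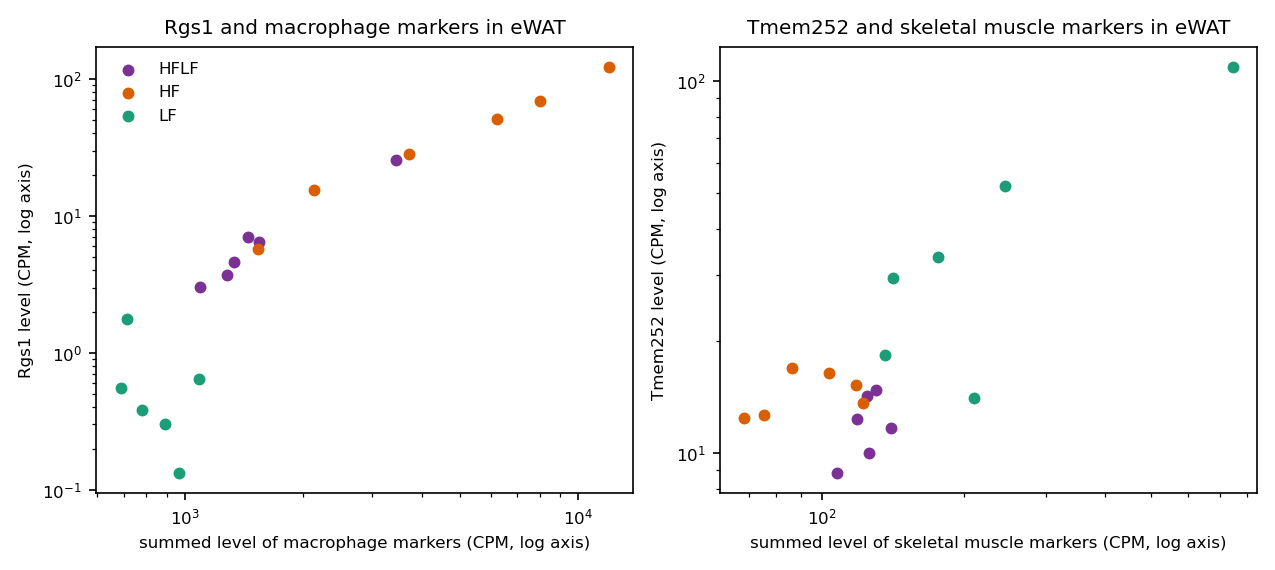
Left, Rgs1 level against the summed level of 12 macrophage markers, and right, Tmem252 level against the summed level of 7 skeletal muscle markers, in the 18 eWAT libraries (CPM, both axes logarithmic, 1 point per library, coloured by diet). Rgs1 rises with the macrophage sum across HFLF and HF libraries, and the highest Tmem252 value, 109 CPM, belongs to the LF library with the highest muscle sum, 746 CPM.

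Within diets the genes did not move as 1 group. With diet means removed, the 10 pairs of higher genes had a median correlation of 0.16 over the 18 libraries (range -0.64 to 0.44), the 10 pairs of lower genes 0.28 (-0.16 to 0.71) and the 25 mixed pairs -0.30 (-0.75 to 0.41). Tmem252 and Tst were the pair most alike (r = 0.71), and Crybg3 and Tst the least (r = -0.75). All genes of a library share its depth and cell makeup. The eWAT genes with the pattern most like each gene, diet differences included, were sought among the 11276 genes whose mean log2 CPM reached 2. Rgs1 was most like Gpnmb (r = 0.98) and Atp6v0d2 (r = 0.97), Pde7a like Golim4 (0.96) and Fgf13 (0.93), Tmeff2 like Slc2a10 (0.95), and Tst like Cyp2f2 (0.96) and Zfp865 (0.96). Cyp2f2 was also the gene most like Dok7 (0.92). Crybg3 was most like Cdan1 (0.93), Tmem273 like Cep250 (0.94), Tmem252 like Fiz1 (0.89), Sesn2 like Tiparp (0.87) and Chchd10 like Coq8b (0.86).

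Liver values did not enter the choice of the genes and were tested. The livers may come from the same mice as the eWAT libraries, which the labels do not say. In HFLF against LF, 1 of the 9 genes in the liver table was called, against 22.6% of all liver genes. In HF against LF 4 of 9 were called, against 34.8%. These 4 included Tmeff2, which met the count filter (over 0.5 CPM in at least 6 libraries) only with its LF livers. Its call thus cannot show a fall. In HFLF against HF edgeR called 0 of 9, against 5.23% of all genes, with 3 at an unadjusted p under 0.05, and DESeq2 called 2. These shares lay near or below the background, so the counts are not a result about the 9 genes. Because each tissue was scaled by itself, levels are set side by side across tissues as a description.

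Pde7a was higher in liver too. It had 4.95, 6.44, 5.19, 6.46, 4.998 and 6.90 CPM in HFLF livers, 4.23 to 6.69 CPM in HF livers (median 5.58) and 3.16 to 4.82 CPM in LF livers (median 3.94). All HFLF livers lay above all LF livers, while HF overlapped LF. Over all liver genes, 6.15% had no overlap between HFLF and LF. Pde7a rose in HFLF against LF (0.55 ± 0.14, edgeR adjusted p = 0.00991) and in HF against LF (0.45 ± 0.14, 0.0175). Without LF libraries 1 and 2 the HF call was lost (0.45, 0.051), and without LF libraries 1 to 4 both were (0.57, 0.197 in HFLF; 0.47, 0.195 in HF).

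Crybg3 and Tmeff2, both higher in eWAT of HF mice, had lower levels in HF than in LF liver. Crybg3 had 9.02 to 18.6 CPM in HFLF livers (median 10.9), 6.62 to 9.53 CPM in HF livers (median 7.99) and 9.99 to 18.3 CPM in LF livers (median 13.1). All HF livers lay below all LF livers, as was the case for 11% of liver genes in either direction. Crybg3 fell in HF against LF (-0.72 ± 0.17, edgeR adjusted p = 0.0039), and the call was lost without LF libraries 1 to 4 (-0.63, 0.124). In HFLF against LF its log2 fold change was -0.13 ± 0.17 (0.591). In HFLF against HF it was 0.58 ± 0.17 (0.0516), past the threshold in DESeq2 (0.0202). Tmeff2 was near the detection limit in liver, with 0 to 28 counts per library in HFLF, 0 to 12 in HF and 15 to 51 in LF. It met the filter of the table, over 0.5 CPM in at least 6 libraries, only with its LF livers. A level below LF was thus favoured in advance, and its tests against LF cannot show a fall. Its log2 fold change was -2.08 ± 0.72 in HF against LF (edgeR adjusted p = 0.0331) and -1.68 ± 0.70 in HFLF against LF (0.0909). The HF call was lost without LF library 3 or without any 1 of HF libraries 1 to 4 (adjusted p = 0.0605 to 0.0778), and without HFLF library 3 the HFLF difference passed the threshold (-3.02, 0.00906).

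The mitochondrial genes were more abundant in liver than in eWAT. Tst had 203 to 250 CPM in HFLF livers (median 238), 213 to 315 CPM in HF livers (median 235) and 181 to 234 CPM in LF livers (median 199.97), all above its highest eWAT library at 102 CPM. Tst rose in HF against LF (0.31 ± 0.10, edgeR adjusted p = 0.0219), and in HFLF against LF its log2 fold change was 0.19 ± 0.10 (0.158). The HF call was lost without LF library 2 (0.0549), HF library 2 (0.063) or HF library 6 (0.0527). Mpst rose as well in HF livers, with 113 ± 6.71 CPM in HFLF, 140 ± 7.57 CPM in HF and 93.2 ± 20.6 CPM in LF (0.58 ± 0.11 in HF against LF, adjusted p = 0.000973). Chchd10 had 341 to 484 CPM in HFLF livers, 422 to 534 CPM in HF livers and 350 to 502 CPM in LF livers, against at most 141 CPM in eWAT. Its log2 fold changes were -0.09 ± 0.10 in HFLF against LF (0.538), 0.16 ± 0.10 in HF against LF (0.214) and -0.25 ± 0.10 in HFLF against HF (0.136).

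Sesn2 had 6.26 to 14.5 CPM in HFLF livers (median 9.89), 13.4 to 16.6 CPM in HF livers (median 14.3) and 9.72 to 16.5 CPM in LF livers (median 13.2). Its log2 fold change was -0.35 ± 0.16 in HFLF against LF (edgeR adjusted p = 0.126) and -0.50 ± 0.16 in HFLF against HF (0.0796), the second past the threshold in DESeq2 (0.0421). Without HFLF library 2 both passed in edgeR (0.0391 and 0.029). Rgs1 averaged 0.769 ± 0.321 CPM in HFLF livers, 0.835 ± 0.405 CPM in HF livers and 1.94 ± 2.01 CPM in LF livers, where 2 libraries, at 5.73 and 2.62 CPM, stood above the rest. Its log2 fold change was -1.35 ± 0.57 in HFLF against LF (edgeR adjusted p = 0.0923) and -1.20 ± 0.55 in HF against LF (0.0955), the HF value turning to 0.036 without these 2 libraries. The summed macrophage markers overlapped between diets in liver, with 213 to 332 CPM in HFLF, 186 to 310 CPM in HF and 184 to 327 CPM in LF. Tmem273 and Tmem252 held at most 1.59 CPM in any liver library and passed no test (adjusted p of 0.466 to 0.825).

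**Figure D4:**
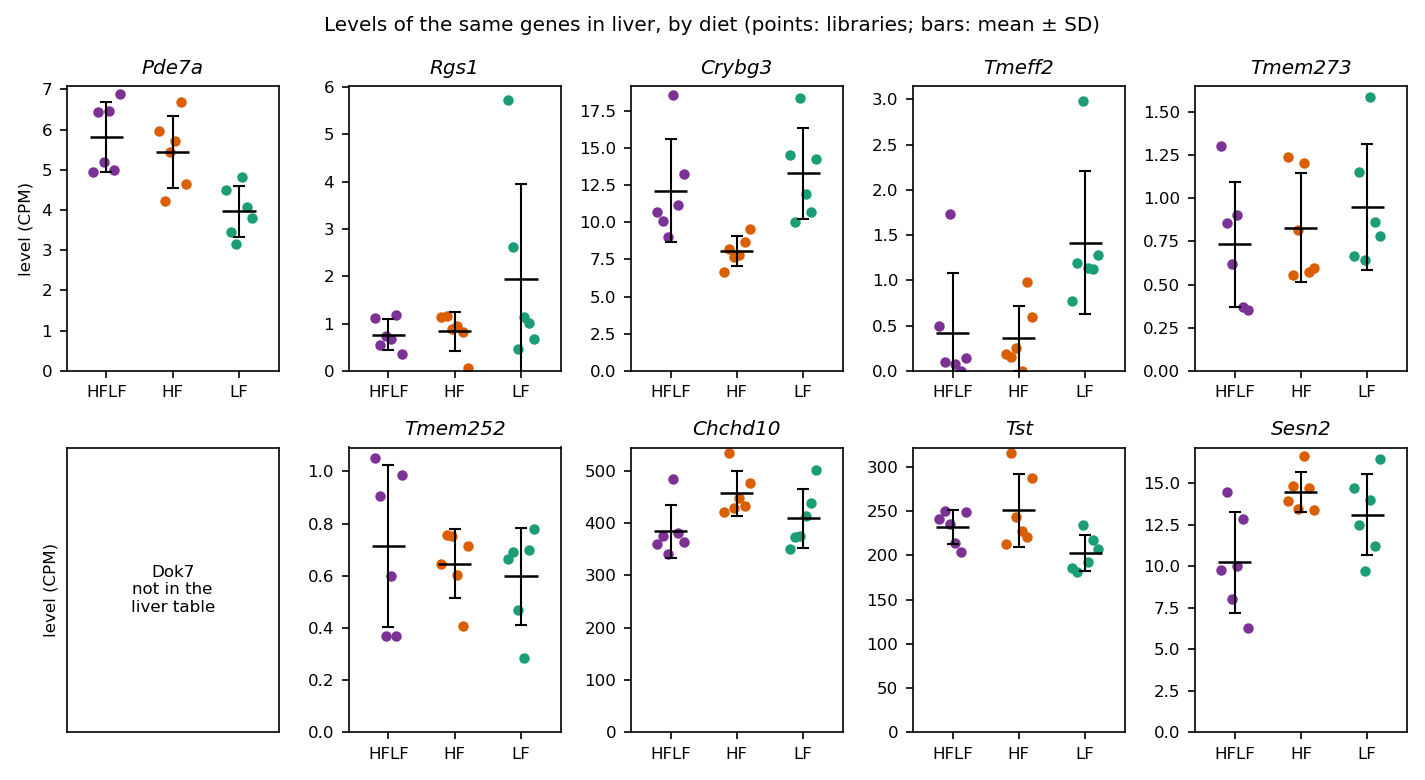
Level in liver (CPM, linear axis starting at 0) of the same genes, with 1 point per library in HFLF, HF and LF and the mean ± SD in black (n = 6 each). Pde7a is higher in HFLF than in LF in every library, and Crybg3 is lower in every HF library than in any LF library.

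**Figure D5:**
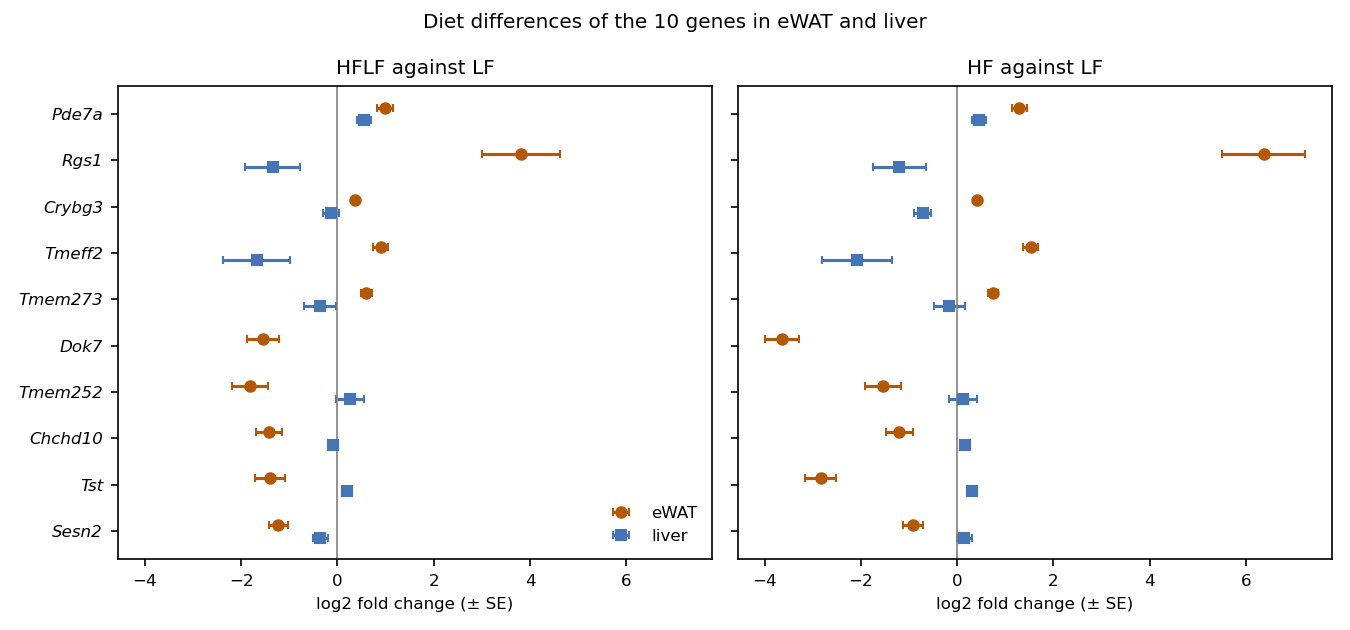
Log2 fold change (± SE) of each gene in eWAT (circles) and liver (squares), for HFLF against LF on the left and HF against LF on the right. Pde7a lies above 0 in both tissues, Tst lies below 0 in eWAT and above 0 in liver, and Dok7 has no liver value.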

How the data were processed

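Per the labels' protocols, RNA was extracted with TRI reagent and sequenced on a NovaSeq. The submitters' processing notes name STAR, with no version, and the GRCm38.p6 build. The counting tool, its annotation and its strand setting are, in the sources used here, not given. The authors deposited raw counts per gene for each tissue. Every gene in these tables exceeded 0.5 CPM in 6 or more of 18 libraries. The authors also deposited tables named RPKM, which were not used because the gene lengths they imply differ between libraries (median ratio of longest to shortest 97.3 in eWAT and 96.8 in liver).

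Symbols and positions came from GENCODE M21, which held 16668 of 16690 eWAT and 14034 of 14052 liver genes. For each tissue the 3 diets, 6 libraries each, were fitted with no covariate in edgeR 4.0.16 under R 4.3.3 (robust quasi-likelihood, TMM factors). P-values were adjusted by Benjamini-Hochberg over all genes of the table, at 0.05. CPM were computed from the counts and TMM factors, and correlations used log2 CPM with a prior count of 2. Alternatives were DESeq2 1.42.0, other scalings, filterByExpr, fits of 2 groups, the replicate number as a block and leaving out libraries.

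The 10 genes, the lists of relatives and the marker lists were chosen with earlier results of these data known. Named relatives were those with the smallest p in a list and those of the same family by name, and for each gene the 2 genes most correlated with it were sought. Overlapping genes, the markers called in HFLF and the last genes of small counts, such as Chac1, were named after their values were seen. Scripts were tested on simulated data. Replicate numbers were checked as pairs: between diets of 1 tissue, 2 or 3 of 6 same-numbered pairs had a residual correlation above 0.1. Between eWAT and liver of 1 diet, 2 or 3 of 6 pairs did. The own number was the best match there in 3 of 6 libraries of each diet. Whether equal numbers in the tissues mark the same mouse is not given by the labels. The labels list 6 libraries per group, while the series text gives a range that starts lower.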

Additional observations from a re-analysis of the deposited data

Results flagged for a closer look

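In 57 groups of 6 libraries, 7 held a library far from the other 5, where chance flags about 1 group in 20. In eWAT these were Chchd10 in HFLF library 4 (54.5 CPM, others 21.0 to 33.0), Rgs1 in HFLF library 2 (25.4 CPM, others 3.05 to 7.0) and Rgs1 in LF library 2 (1.76 CPM, others 0.132 to 0.646). In liver they were Chchd10 in HFLF library 4 (484 CPM, others 341 to 380), Rgs1 in HF library 6 (0.0596 CPM, others 0.816 to 1.16), Tmeff2 in HFLF library 3 (1.73 CPM, others 0 to 0.495) and Tmeff2 in LF library 3 (2.99 CPM, others 0.768 to 1.28).

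Some diet differences had opposite signs in the tissues, with every library of the first diet on one side of the second diet's mean in eWAT and on the other side in liver. These differences between tissues were not tested. In HFLF against LF they were Rgs1 (log2 fold change 3.81 in eWAT and -1.35 in liver) and Tst (-1.40 in eWAT and 0.19 in liver). In HF against LF they were Crybg3 (0.41 in eWAT and -0.72 in liver), Tmeff2 (1.53 and -2.08), Rgs1 (6.37 and -1.20), Chchd10 (-1.20 and 0.16), Tst (-2.83 and 0.31) and Sesn2 (-0.92 and 0.15), eWAT first. The liver sign of Tmeff2 was favoured in advance, because Tmeff2 met the count filter only with its LF livers. In HFLF against HF, Tst stood at 1.43 in eWAT and -0.11 in liver.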

How the results depend on the processing

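In eWAT, the log2 fold changes of the 10 genes kept their direction under all alternatives run, with 1 exception: Crybg3 in HFLF against HF was 0.0086 with upper-quartile factors and -0.05 with TMM. The genes were chosen for their differences from LF in these libraries. A kept direction against LF was thus favoured in advance and says little about them. The number of genes called in HFLF against LF (94) was not stable. It was 704 with DESeq2, 50 with only the 2 groups compared and 0 to 341 with 1 library left out. It was 0 without LF library 1, 2 or 4 (2876, 2594 and 2623 genes at an unadjusted p under 0.05), 4 without LF library 3, 1 without HFLF library 1, 2, 3, 5 or 6, 341 without LF library 5 and 173 without HFLF library 4. Leaving out LF library 3, HF library 1 and HFLF library 4 together, chosen after seeing the data for their Crisp1 level, gave 0 (3058 at an unadjusted p under 0.05, against 3028 over all libraries). It also gave 2600 genes in HFLF against HF, against 4242. With 1 library left out, eWAT counts were 5845 to 7113 in HF against LF and 3075 to 5314 in HFLF against HF, and liver counts 2130 to 3918 in HFLF against LF, 3786 to 5473 in HF against LF and 215 to 1036 in HFLF against HF.

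In liver, leaving out LF libraries 1 and 2 gave 1396 genes in HFLF against LF and 2742 in HF against LF, and leaving out LF libraries 1 to 4 gave 26 and 297, all chosen after seeing the data. HFLF against HF (735) gave 1312 with DESeq2 and 1181 with only the 2 groups compared. With upper-quartile factors the share of called genes that were higher became 53.6% in eWAT HFLF against HF (42.1% with TMM), 61.7% in liver HFLF against LF (45.1%) and 61.2% in liver HF against LF (46.9%). Liver signs that turned, none of them past the threshold, were Tmem252 (-0.034 in HFLF against LF and -0.18 in HF against LF), Tmem273 (0.044), Rgs1 (0.0046) and Chchd10 (-0.038, these in HF against LF) without LF libraries 1 to 4, Rgs1 in HF against LF without LF libraries 1 and 2 (0.036), Tmem273 (0.031) and Tmem252 (-0.023) in HF against LF without LF library 4, and Tmeff2 in HFLF against HF without HFLF library 3 (-0.94, against 0.40 over all). With 1 library left out these 3 ran from -0.32 to 0.031, -0.023 to 0.20 and -0.94 to 0.92. The cause of these changes was not tested.

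Same-numbered libraries did not correlate above 0.1 in all pairs. Their own number was the best match in 1 or 2 of 6 libraries between diets of 1 tissue. Between eWAT and liver it was the best match in 3 of 6 libraries of each diet. The labels do not say what the numbers mark. With the replicate block the count was 15 in eWAT HFLF against LF and 444 in liver HFLF against HF. Tmeff2 in liver HFLF against LF passed the threshold with it (-1.95, edgeR adjusted p = 0.0481), which cannot show a fall because of the count filter.

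Rgs1 in LF eWAT and Tmeff2, Rgs1, Tmem273 and Tmem252 in liver rest on few counts, where depth limits what can be told apart.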
